A study of Mus musculus with 24 samples.

Results

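Collagen genes of the interstitial matrix and the genes that modify, trim and crosslink collagen were described in the epithelial fraction of mouse lung organoid cultures exposed to nylon fibers. Members were chosen by name: every listed collagen chain except those of collagens IV and XVII, plus lysyl oxidases, lysyl and prolyl hydroxylase subunits, collagen chaperones and propeptide-cleaving enzymes. The rule gave 42 of the 14557 genes with a listed transcript, of which 27 are collagen chains and 15 are processing genes. The symbol Leprel, also in the rule, had no listed transcript. The name of the group does not cover all its members evenly, since Col7a1, Col15a1, Col18a1, Col23a1 and Col25a1 encode collagens known from epithelial anchoring, basement membrane zones or cell membranes.

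The study asked how inhalable nylon 6,6 fibers act on lung organoids. Primary EpCAM-positive lung cells of wild-type female C57BL6 mice were seeded with cells of CCL206, a fibroblast line made from the lung of a male ddY mouse, at 200000 cells of each per well in diluted Matrigel. Wells held no fibers (control), 12000 fibers or 30000 fibers of 12 by 31 micrometers, and after 7 days anti-EpCAM beads parted the culture into an EpCAM-positive (epithelial) and an EpCAM-negative (fibroblast) fraction. Each of the 3 epithelial groups held 4 libraries, and mice 1 to 4 each gave a library to every group. All groups were wild type and all contained the same fibroblast line, which is a single line grown in every well. Magnetic beads were the only separation given in the labels, with no measure of purity.

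Fibrillar collagens are made as procollagen trimers whose proline and lysine residues are hydroxylated in the endoplasmic reticulum, where chaperones such as the Serpinh1 product (HSP47) hold the folded helix. After secretion the end peptides are cut off, fibrils form, and lysyl oxidases crosslink them. In the lung, fibroblasts are known as the main source of collagens I, III, V and VI, whereas collagen VII forms the anchoring fibrils made under stratified and basal epithelium. Collagens VIII, XV and XVIII belong to short-chain networks and to basement membrane zones.

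Expression is given as CPM, the count of a gene's most abundant listed transcript per 1000000 such counts after TMM scaling, with mean ± SD over 4 libraries. Library totals ran from 21222034 to 28232472 counts in controls, from 20103389 to 31119155 with 12000 fibers and from 6767842 to 9234052 with 30000 fibers. The share of mitochondrial transcripts was 5.20% to 7.77%, 5.33% to 6.91% and 14.3% to 16.3% in the same order. The epithelial identity of the libraries showed in Epcam at 650 ± 64.5, 484 ± 14.9 and 239 ± 36.8 CPM and in Cdh1 at 1422 ± 99.1, 1522 ± 86.8 and 894 ± 67.5 CPM. Over the 20 pan-epithelial markers the summed level was 8070 to 9298 CPM in controls, 8127 to 9116 CPM with 12000 fibers and 4648 to 5454 CPM with 30000 fibers. The test and the shares of all genes are given in the next paragraph. By that test 3 of the 20 were higher and 10 lower with 12000 fibers than in controls. With 30000 fibers 1 was higher and 16 were lower.

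Markers of fibroblasts moved with the fiber number as well. Of 25 collagen-free fibroblast markers 19 were listed and 18 could be tested. In the quasi-likelihood test of edgeR, with a Benjamini-Hochberg adjusted p under 0.05 over all genes tested, 12 were higher and 2 were lower with 12000 fibers than in controls, and 17 were higher and 1 was lower with 30000 fibers. Of all genes tested, 18.7% were higher and 19.3% lower with 12000 fibers, and 32.2% were higher and 33.4% lower with 30000 fibers. The summed level of the fibroblast markers was 528 to 1088 CPM in controls, 1158 to 1395 CPM with 12000 fibers and 2415 to 3251 CPM with 30000 fibers. Among the defining genes were Pdgfra at 38.4 ± 15.8, 87.5 ± 9.41 and 167 ± 24.9 CPM and Dcn at 23.6 ± 8.97, 65.6 ± 7.18 and 230 ± 27.7 CPM. Vim was at 160 ± 71.1, 351 ± 28.7 and 795 ± 109 CPM, and Acta2, a myofibroblast marker, at 20.8 ± 8.58, 32.9 ± 5.05 (not called) and 85.4 ± 29.4 CPM. The myofibroblast markers summed to 692 to 809, 480 to 672 and 387 to 607 CPM, with Tnc, the most abundant of them, at 538 ± 49.8, 355 ± 94.6 and 257 ± 54.4 CPM. Of 7 tested, Tnc alone was lower against controls, with both fiber numbers. Tagln, Myl9 and Des were higher with both, and Acta2 with 30000 fibers only. A fibroblast marker that fell with both fiber numbers, named after its values were seen, was Fbln1, a matrix glycoprotein, at 33.4 ± 7.79, 3.46 ± 1.58 and 0.608 ± 0.537 CPM. More fibroblasts in the fraction, more fibroblast RNA per cell and marker RNA from other cells cannot be told apart in bulk libraries. Endothelial markers summed to 3.90 to 5.34 CPM over all 12 libraries, although Pecam1 and Vwf were higher (1.13 ± 0.41 and 1.1 ± 0.42) and Kdr was lower (-1.49 ± 0.42) with 30000 than with 12000 fibers. The 4 listed immune markers summed to 72.8 to 178, 161 to 285 and 293 to 462 CPM, mostly from Lyz2, which alveolar type 2 cells also express. Of 4 mesothelial markers only Msln was listed, at 1106 ± 105, 751 ± 65.1 and 463 ± 96.1 CPM, and it was called lower in all 3 comparisons. The part of these other cell types in the collagen results was not tested.

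Sex-linked genes were looked at because the fibroblast line is male and the mice were female. Of 7 Y-linked genes looked for only Kdm5d was listed, at 2.07 ± 0.814, 2.43 ± 0.462 and 0.402 ± 0.300 CPM. With 30000 fibers edgeR called it lower, at log2 fold changes of -2.25 against controls and -2.45 against 12000 fibers. These values lie near the floor, and reads it may share with its X-linked relative Kdm5c cannot be told apart. Xist was at 3216 ± 324, 3359 ± 446 and 3377 ± 322 CPM and was called in no comparison. Tsix, the other female marker looked for, was called lower against controls with both fiber numbers. The bearing of these values on the fibroblast share was not tested.

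The members together took 0.374% to 0.521% of counts in controls, 0.520% to 0.571% with 12000 fibers and 0.487% to 0.612% with 30000 fibers. Per kilobase of transcript, the control levels were led by P4hb at 209 ± 11.6 CPM per kb and Serpinh1 at 106 ± 16.9 CPM per kb. Col7a1 at 66.6 ± 17.3, Col18a1 at 62.6 ± 9.21, Lox at 53.6 ± 10.9, Bmp1 at 52.8 ± 10.7, Col1a2 at 50.5 ± 23.1 and Col1a1 at 49.8 ± 18.4 CPM per kb followed, and neighbours among these 6 lay within 1 SD of each other. With 30000 fibers the order was P4hb at 255 ± 24.8, Col1a2 at 164 ± 20.0, Col1a1 at 149 ± 21.4, Serpinh1 at 132 ± 10.9 and Col6a3 at 82.6 ± 13.7 CPM per kb, where Col1a2 and Col1a1, and Col1a1 and Serpinh1, differed by less than the larger SD of each pair. Col7a1 went down this order to rank 12 with 12000 fibers and to rank 21 with 30000 fibers, while its rank in controls was 3.

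Of the 42 members 39 passed the filter on low counts. Col22a1, Col23a1 and Col26a1 did not, with group means between 0.353 and 1.52 CPM. With 12000 fibers 21 tested members rose and 6 fell against controls, and 12 were not called. Over all 13759 genes tested, 18.7% rose and 19.3% fell in that comparison (38.0% changed), and the median log2 fold change was 0.42 for the members and -0.003 for all genes. With 30000 fibers 19 members rose and 9 fell, where 32.2% of all genes rose and 33.4% fell (65.6% changed), and the medians were 0.29 and -0.026. Between 30000 and 12000 fibers 10 members rose and 11 fell, where 28.3% of all genes rose and 27.1% fell (55.4% changed), and the medians were -0.06 and -0.012. The members' share of falls with 30000 fibers was thus below that of all genes and their share of rises above it, and against 12000 fibers the shares were close to those of all genes.

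Groups of 4 libraries did not overlap for 19 of the 42 members that were higher and 7 that were lower with 12000 fibers, where 17.6% and 18.7% of all genes tested were so placed. With 30000 fibers these counts were 15 and 9, against 28.7% and 29.4% of all genes, and between fiber numbers 12 and 14, against 26.7% and 25.6%.

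The 2 comparisons with controls share the control libraries, so the values of the doses are set side by side only. The 7 members Adamts2, Col1a1, Col6a3, Crtap, Loxl1, Loxl3 and Plod3 were higher in all 3 comparisons. Col7a1 and Col27a1 were lower in all 3. The 6 members Col2a1, Col9a3, Col11a1, Col18a1, Col20a1 and Plod2 were called in none. No count of these patterns over all genes is given, of which 38.0%, 65.6% and 55.4% were called in the 3 comparisons. Whether the patterns are more frequent among the members is therefore not known. With the transcripts of each gene summed, Plod3 lost its call in all 3 comparisons (edgeR adjusted p = 0.0597, 0.158 and 0.51). Adamts2 lost its step between fiber numbers in that fit (0.65 ± 0.31, edgeR adjusted p = 0.085).

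**Figure D1:**
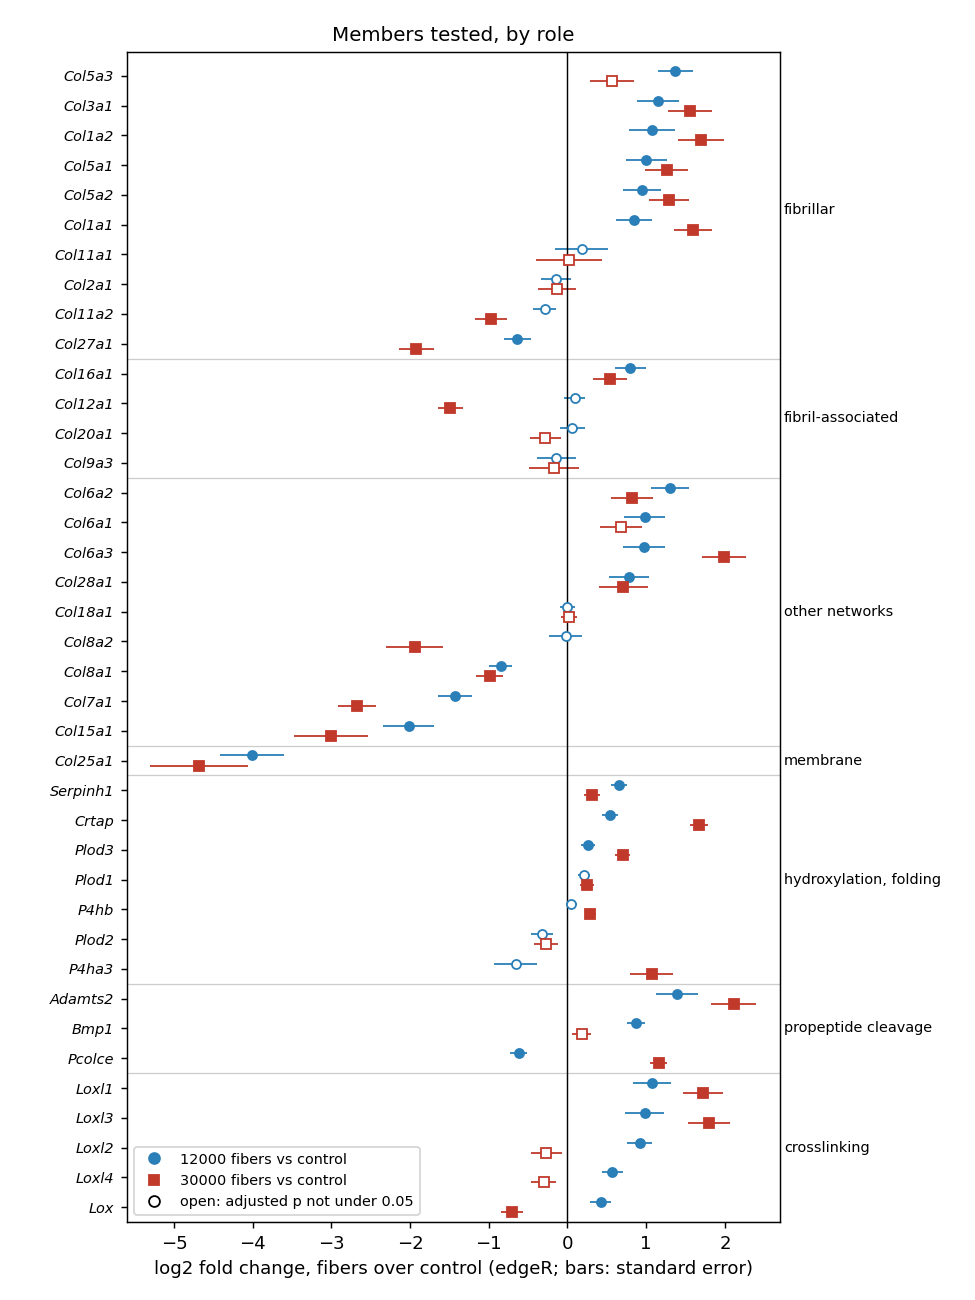
Log2 fold changes of the 39 tested members over control (x axis) with 12000 fibers (circles) and 30000 fibers (squares), grouped by role; bars are standard errors and open symbols did not pass the adjusted p of 0.05. Chains of collagens I, III, V and VI sit to the right of 0, and Col7a1, Col15a1 and Col25a1 sit farthest to the left.

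Col1a1, Col1a2, Col3a1, Col5a1 and Col5a2, chains of the collagens I, III and V that build the fibrils of interstitial matrix, rose with both fiber numbers. Of 10 fibrillar chains tested, 6 rose and 1 fell with 12000 fibers, and 5 rose and 2 fell with 30000 fibers. Beside this and each later count by role or pathway stand the shares of all genes, 18.7% up and 19.3% down with 12000 fibers, and 32.2% up and 33.4% down with 30000 fibers. Col1a1, on chromosome 11 from 94936224 to 94953042 (GRCm38, plus strand, 51 exons), encodes the alpha 1 chain of collagen I. It had 171, 292, 436 and 283 CPM in the controls of mice 1 to 4, then 592, 510, 528 and 487 CPM with 12000 fibers and 853, 1034, 923 and 732 CPM with 30000 fibers. The 3 groups did not overlap, and within controls mouse 1 was lowest and mouse 3 highest. The log2 fold change was 0.84 ± 0.23 (SE) with 12000 fibers (adjusted p = 0.0174, edgeR), 1.59 ± 0.24 with 30000 fibers (adjusted p = 1.88e-04) and 0.74 ± 0.23 between 30000 and 12000 fibers (adjusted p = 0.0214).

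Col1a2, the partner chain in the collagen I trimer, had 129, 263, 431 and 257 CPM in controls, 617, 533, 593 and 523 CPM with 12000 fibers and 874, 1017, 866 and 756 CPM with 30000 fibers. It rose by 1.07 ± 0.29 on the log2 scale with 12000 fibers and by 1.70 ± 0.29 with 30000 fibers (edgeR adjusted p = 0.015 and 5.14e-04). The step between fiber numbers was 0.63 ± 0.29 (edgeR adjusted p = 0.0869), although all 4 mice were higher with 30000 fibers. Per kilobase, the ratio of Col1a1 to Col1a2 lay between 0.804 and 1.19 in all 12 libraries. Its means were 1.02 ± 0.117 in controls, 0.843 ± 0.0288 with 12000 fibers and 0.908 ± 0.0408 with 30000 fibers.

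Col3a1, the chain of the collagen III homotrimer, had 24.2, 47.9, 75.0 and 43.1 CPM in controls, 121, 95, 110 and 91.6 CPM with 12000 fibers and 151, 156, 135 and 117 CPM with 30000 fibers. Every library with fibers was above every control. Its log2 fold change was 1.15 ± 0.27 with 12000 fibers and 1.56 ± 0.28 with 30000 fibers (edgeR adjusted p = 0.00751 and 6.95e-04). Col5a1 and Col5a2, chains of the collagen V that sets fibril diameter, rose by 1.00 ± 0.26 and 0.95 ± 0.24 with 12000 fibers and by 1.26 ± 0.27 and 1.29 ± 0.25 with 30000 fibers. Col5a1 had 45.4, 78.7, 134 and 88.5 CPM in controls, 187, 161, 180 and 161 CPM with 12000 fibers and 195, 247, 195 and 186 CPM with 30000 fibers. Col5a2 had 34.7, 69.1, 97.7 and 62.1 CPM in controls, 129, 114, 139 and 124 CPM with 12000 fibers and 153, 186, 159 and 145 CPM with 30000 fibers. Controls of both genes lay below all libraries with fibers. Neither Col3a1, Col5a1 nor Col5a2 passed the test between 30000 and 12000 fibers, with differences of 0.41 ± 0.27, 0.26 ± 0.26 and 0.34 ± 0.24. An edgeR fit to the libraries of these 2 groups alone called all 3 higher at nearly the same differences (adjusted p = 0.00119, 0.00615 and 2.85e-04), and Col1a2 as well (2.04e-07). The same fit called Col6a1, Col6a2, Col15a1 and Col16a1 lower. This gave 14 members higher and 15 lower of 38 tested, where 4011 of all 12720 genes tested were higher and 3806 lower.

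Col5a3, the rarer collagen V chain, averaged 5.41 CPM in controls, 13.9 CPM with 12000 fibers and 7.86 CPM with 30000 fibers. It rose by 1.37 ± 0.22 with 12000 fibers and fell by 0.81 ± 0.25 on the log2 scale between 30000 and 12000 fibers (edgeR adjusted p = 0.0102). Against controls the 30000-fiber difference was 0.56 ± 0.28 (adjusted p = 0.0826), or 0.54 with an adjusted p of 0.0322 when mouse was a block in the edgeR fit.

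Col27a1, a fibrillar chain known from cartilage, fell. It had 102, 68.4, 77.3 and 67.1 CPM in controls, 49.9, 37.4, 63.2 and 51.4 CPM with 12000 fibers and 23.5, 13.8, 24.1 and 21.4 CPM with 30000 fibers, so that none of the groups overlapped. The log2 fold changes were -0.64 ± 0.17, -1.92 ± 0.22 and, between fiber numbers, -1.28 ± 0.23 (edgeR adjusted p = 0.0122, 9.26e-06 and 4.84e-04). Col11a2 fell by 0.97 ± 0.20 with 30000 fibers, and Col2a1 and Col11a1, cartilage chains at group means of 3.94 to 5.37 CPM, were not called.

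**Figure D2:**
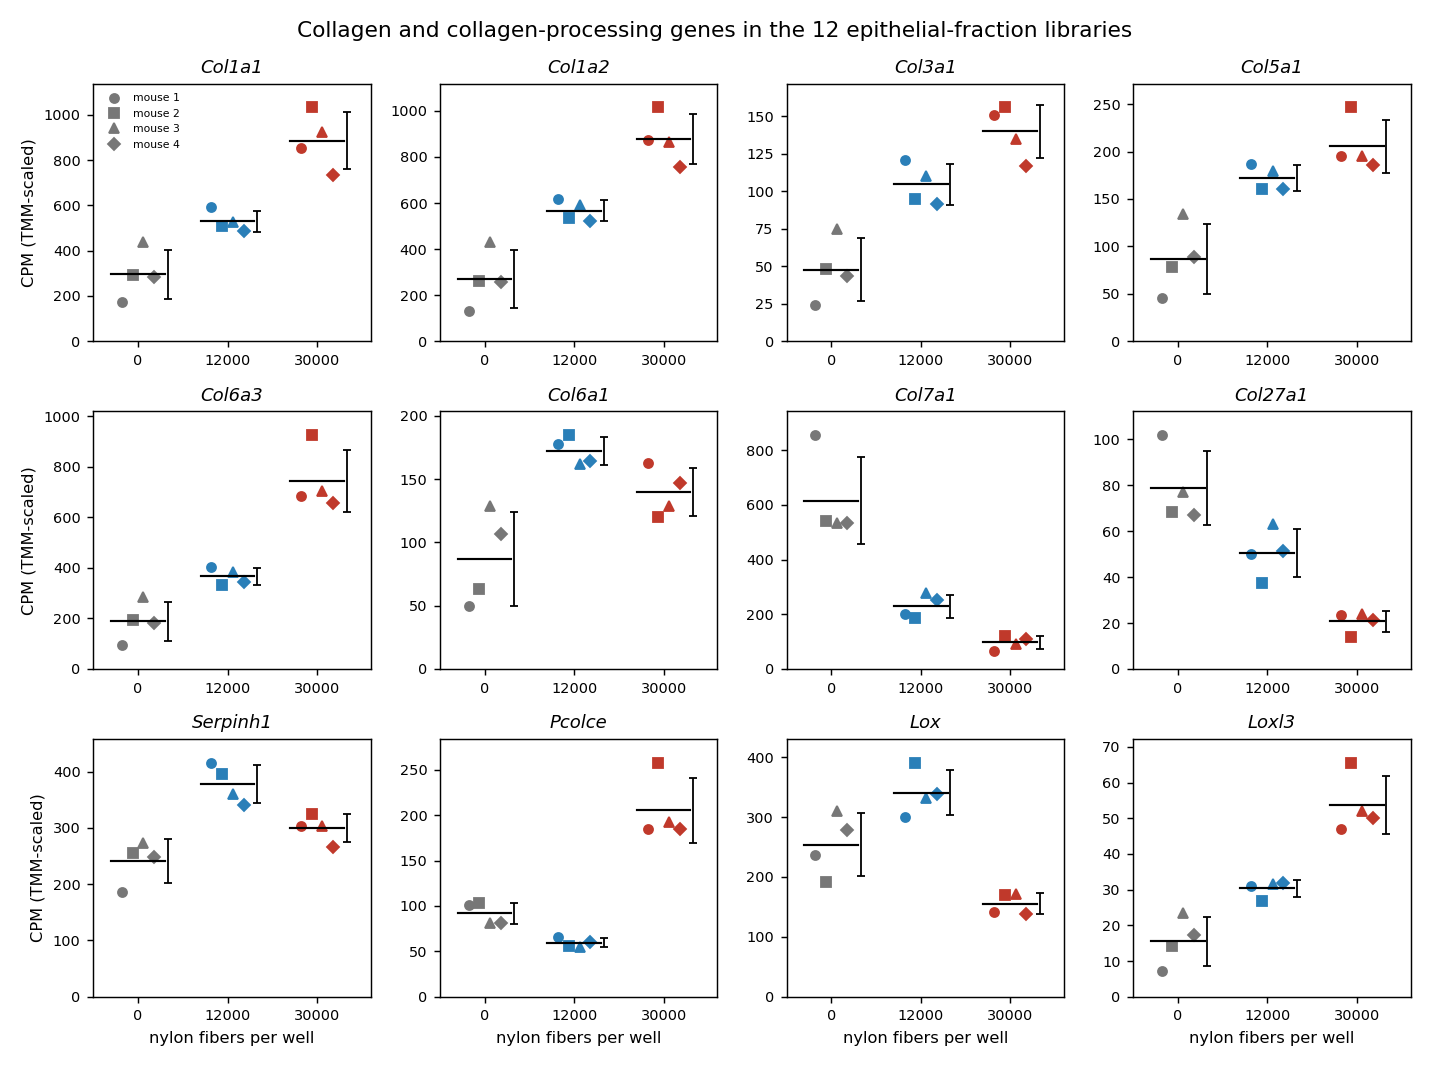
CPM (y axes, from 0) of 12 members in the libraries of 4 mice (symbols) at 0, 12000 and 30000 fibers per well (x axes); black lines are means and bars SD over 4 libraries. Col1a1 and Col6a3 climb at each step, Col7a1 and Col27a1 fall at each step, and Lox, Serpinh1 and Col6a1 have their highest mean at 12000 fibers.

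The beaded filaments of collagen VI are built from a trimer of the Col6a1, Col6a2 and Col6a3 products, and these chains parted at 30000 fibers. Col6a1 had 49.5, 63.3, 129 and 107 CPM in controls, 178, 185, 162 and 164 CPM with 12000 fibers and 163, 120, 129 and 147 CPM with 30000 fibers. Col6a3, on chromosome 1 from 90766860 to 90843952 (GRCm38, minus strand, 41 exons), had 93.8, 195, 283 and 180 CPM in controls, 403, 334, 383 and 345 CPM with 12000 fibers and 683, 927, 706 and 658 CPM with 30000 fibers. With 12000 fibers the 3 chains rose by 0.98 ± 0.26, 1.30 ± 0.24 and 0.97 ± 0.27 on the log2 scale. With 30000 fibers Col6a3 rose by 1.99 ± 0.28 and Col6a2 by 0.82 ± 0.27, and Col6a1 was at 0.68 ± 0.27 (edgeR adjusted p = 1.25e-04, 0.0212 and 0.0509). DESeq2 gave an adjusted p of 0.0172 for that Col6a1 difference.

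Per kilobase, the Col6a3 to Col6a1 ratio was 0.762 to 1.4 in controls, 0.825 to 1.07 with 12000 fibers and 1.91 to 3.51 with 30000 fibers, where it lay apart from all other libraries. The ratio of Col6a1 to Col6a2 stayed between 3.78 and 6.19 in all 12 libraries. These pairs were picked after their values had been seen, so their ratios are given without a test. Col6a3 is the longest of these transcripts, at 9001 bases against 4100 for Col6a1 and 3949 for Col6a2.

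Collagen VII, the anchoring fibril collagen, had the highest mean per kilobase of the collagen chains in controls, within 1 SD of Col18a1, and fell stepwise. Col7a1 lies on chromosome 9 from 108953586 to 108984875 (GRCm38, plus strand, 119 exons). It had 856, 541, 532 and 534 CPM in controls, 200, 187, 278 and 251 CPM with 12000 fibers and 65.4, 120, 91.6 and 110 CPM with 30000 fibers. The groups did not overlap, and control mouse 1 stood above the other 3 controls. The log2 fold change was -1.43 ± 0.22 with 12000 fibers, -2.67 ± 0.24 with 30000 fibers and -1.24 ± 0.23 between fiber numbers (edgeR adjusted p = 4.84e-04, 2.87e-06 and 0.00111).

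Col15a1, a multiplexin of basement membrane zones, had 31.4, 18.1, 15.4 and 41.0 CPM in controls, 6.19, 5.60, 5.86 and 8.57 CPM with 12000 fibers and 5.48, 1.41, 2.94 and 3.67 CPM with 30000 fibers. It fell by 2.02 ± 0.33 and by 3.00 ± 0.47 on the log2 scale against controls. Between fiber numbers its change of -0.97 ± 0.57 was not called (edgeR adjusted p = 0.169), but all 4 mice were lower and the fit with mouse as a block gave an adjusted p of 0.00769. Col8a1, a short-chain collagen, fell by 0.85 ± 0.15 and 0.99 ± 0.17, and its partner Col8a2 fell only with 30000 fibers, by 1.94 ± 0.36 (1.92 ± 0.36 against 12000 fibers). The Col8a2 values rest on 5, 3, 2 and 2 counts with 30000 fibers, against 27, 39, 40 and 38 in controls. Col18a1, whose C-terminal fragment is endostatin, had 278, 296, 384 and 309 CPM in controls, 327, 292, 339 and 308 CPM with 12000 fibers and 292, 364, 341 and 289 CPM with 30000 fibers, overlapping throughout, with log2 differences of 0.00 ± 0.09 and 0.02 ± 0.10 from controls. With 30000 fibers its other listed transcripts were lower than in controls, at log2 ratios of -0.81 to -0.20. Summing its transcripts gave -0.22 ± 0.10 (edgeR adjusted p = 0.0646). Col28a1, a von Willebrand factor domain collagen at 3.02, 5.17 and 4.92 CPM, rose by 0.78 ± 0.25 and 0.71 ± 0.31.

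Col25a1, a transmembrane collagen known from neurons, had 11.1, 5.06, 4.04 and 7.79 CPM in controls, 0.538, 0.400, 0.418 and 0.268 CPM with 12000 fibers and 0.784, 0, 0 and 0.334 CPM with 30000 fibers. These values rest on 256 counts in all controls, 14 with 12000 fibers and 3 with 30000 fibers. The ratio to controls was 0.0599 with 12000 fibers (95% exact interval 0.0323 to 0.102) and 0.0363 with 30000 fibers (0.00744 to 0.107), intervals that cover counting error only. edgeR called it lower in both (adjusted p = 6.49e-07 and 2.69e-06).

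Among the fibril-associated chains, 1 of 4 tested rose and none fell with 12000 fibers, and 1 rose and 1 fell with 30000 fibers. Col16a1 had 48.8, 65.2, 105 and 77.7 CPM in controls, 142, 125, 132 and 115 CPM with 12000 fibers and 94.4, 129, 111 and 94.9 CPM with 30000 fibers. It rose by 0.80 ± 0.20 with 12000 fibers (edgeR adjusted p = 0.00856). Its rise of 0.54 ± 0.21 with 30000 fibers (adjusted p = 0.0418) was lost with mouse as a block (adjusted p = 0.054, edgeR). Col12a1, which decorates collagen I fibrils, had 92.3, 68.4, 108 and 87.5 CPM in controls, 86.8, 118, 86.7 and 87.1 CPM with 12000 fibers and 25.1, 33.9, 33.3 and 33.1 CPM with 30000 fibers. It did not overlap either other group at 30000 fibers and fell there by 1.49 ± 0.16 against controls and by 1.58 ± 0.16 against 12000 fibers (edgeR adjusted p = 2.60e-06 and 2.26e-06). Col20a1 averaged 21.7, 22.6 and 17.8 CPM and Col9a3 2.25, 1.99 and 1.99 CPM, and neither was called. For Col20a1 the fit with mouse as a block called it lower with 30000 fibers, at an adjusted p of 0.044 against controls and 0.0214 against 12000 fibers.

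Upstream sequence is shown for 6 members that moved in these ways and whose RefSeq start lies within 23 bases of the start of the transcript counted here. Of the 42 members 29 were matched to the promoter table made from RefSeq (GRCm38.p6), and the 13 others, Col1a1 among them, are not shown. Col3a1 (chr1:45311388-45311537, plus strand), Col5a1 (chr2:27886275-27886424, plus strand) and Col6a2 (chr10:76623631-76623780, minus strand) rose, and Col7a1 (chr9:108953436-108953585, plus strand), Col8a1 (chr16:57754738-57754887, minus strand) and Col27a1 (chr4:63215262-63215411, plus strand) fell. Each run holds the 150 bases before the start, 5′ to 3′ on the gene's strand, and capitals mark matches, on either strand, to 1 of 3 motifs. These were the TATA box as TATAAA, the NF-Y box as CCAAT, and a core of the Sp1 motif as GGGCGG, and no match shown overlaps another.
Col3a1: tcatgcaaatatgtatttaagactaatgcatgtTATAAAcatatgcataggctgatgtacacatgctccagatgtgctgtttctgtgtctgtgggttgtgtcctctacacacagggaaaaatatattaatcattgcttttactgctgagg
Col5a1: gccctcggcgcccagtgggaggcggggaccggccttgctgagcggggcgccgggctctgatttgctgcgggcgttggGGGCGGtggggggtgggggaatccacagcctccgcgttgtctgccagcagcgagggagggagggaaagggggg
Col6a2: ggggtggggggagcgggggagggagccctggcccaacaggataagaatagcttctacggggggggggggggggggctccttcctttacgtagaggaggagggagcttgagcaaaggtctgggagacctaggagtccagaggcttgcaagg
Col7a1: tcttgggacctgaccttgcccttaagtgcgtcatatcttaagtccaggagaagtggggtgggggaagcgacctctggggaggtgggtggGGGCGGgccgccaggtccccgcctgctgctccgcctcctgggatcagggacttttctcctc
Col8a1: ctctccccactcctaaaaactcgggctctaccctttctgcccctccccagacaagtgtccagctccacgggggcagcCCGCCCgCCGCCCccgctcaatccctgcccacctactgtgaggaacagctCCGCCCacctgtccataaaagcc
Col27a1: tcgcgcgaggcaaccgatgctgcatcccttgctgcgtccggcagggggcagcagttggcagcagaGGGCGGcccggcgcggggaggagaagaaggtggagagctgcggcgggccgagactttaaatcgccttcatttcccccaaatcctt

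Within 250 bases upstream, GGGCGG was found in 21 of the 29 members (72.4%), against 56.0% of the 13457 promoters of tested genes and 32.7% of all 32851 promoters in the table. CCAAT was found in 9 members (31%), against 35.1% of promoters of tested genes and 33.8% of all promoters. TATAAA was found in 4 members (13.8%), against 6.91% of promoters of tested genes and 12.4% of all promoters. In these 250 bases GGGCGG stood before Col5a1 and Col6a2, which rose, as well as before Col7a1, Col8a1 and Col27a1, which fell.

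Of the 7 enzymes and chaperones that act on procollagen inside the cell, 3 rose with 12000 fibers and 6 rose with 30000 fibers, and none fell in either. Serpinh1, the collagen chaperone, had 186, 256, 274 and 249 CPM in controls, 416, 395, 360 and 341 CPM with 12000 fibers and 304, 325, 303 and 266 CPM with 30000 fibers. All libraries with 12000 fibers were above all others. It rose by 0.65 ± 0.10 and by 0.31 ± 0.10 on the log2 scale against controls and fell by 0.34 ± 0.10 between 30000 and 12000 fibers (edgeR adjusted p = 8.65e-05, 0.0137 and 0.0103).

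P4hb, the beta subunit of prolyl 4-hydroxylase and a general disulfide isomerase, had 550, 624, 615 and 603 CPM in controls, 643, 640, 587 and 598 CPM with 12000 fibers and 720, 833, 701 and 669 CPM with 30000 fibers. It differed from controls by 0.05 ± 0.07 with 12000 fibers, which was not called, and rose by 0.29 ± 0.07 with 30000 fibers. P4ha3, a catalytic prolyl 4-hydroxylase subunit at 2.98, 1.87 and 6.23 CPM, rose by 1.07 ± 0.27 with 30000 fibers and by 1.73 ± 0.29 between fiber numbers. With 12000 fibers it was at -0.66 ± 0.27 (edgeR adjusted p = 0.062, or 0.0487 with mouse as a block).

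Crtap, part of the prolyl 3-hydroxylation complex, had 20.5, 24.1, 30.0 and 27.0 CPM in controls, 41.3, 35.0, 37.1 and 33.6 CPM with 12000 fibers and 76.8, 91.0, 78.6 and 77.5 CPM with 30000 fibers. No groups overlapped, and Crtap rose by 0.54 ± 0.10, by 1.67 ± 0.11 and, between fiber numbers, by 1.13 ± 0.10 (edgeR adjusted p = 3.47e-04, 4.53e-11 and 1.59e-08). At 1674 bases it is the shortest member. The lysyl hydroxylases differed: Plod3 rose by 0.26 ± 0.09 and 0.70 ± 0.10, Plod1 was at 0.21 ± 0.08 (not called) and rose by 0.25 ± 0.09, and Plod2 was at -0.33 ± 0.14 and -0.27 ± 0.15, not called in either (edgeR adjusted p = 0.0812 and 0.138). Plod3 had 67.6, 76.3, 85.7 and 76.0 CPM in controls, 95.4, 92.3, 94.8 and 82.5 CPM with 12000 fibers and 107, 147, 134 and 108 CPM with 30000 fibers. Plod2, which hydroxylates the telopeptide lysines, had 70.6, 63.3, 99.4 and 94.8 CPM in controls, 57.7, 62.1, 65.3 and 76.6 CPM with 12000 fibers and 78.4, 69.1, 65.4 and 60.1 CPM with 30000 fibers, groups that overlapped.

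The genes of propeptide removal did not move as a set. Adamts2, the N-propeptidase, had 1.39, 3.02, 5.86 and 3.34 CPM in controls, 9.32, 5.73, 9.34 and 10.6 CPM with 12000 fibers and 14.5, 13.8, 14.1 and 15.7 CPM with 30000 fibers, and rose by 1.39 ± 0.27 and 2.11 ± 0.29 against controls (edgeR adjusted p = 6.79e-04 and 6.73e-06). Its libraries with 30000 fibers lay above all others, and those with 12000 fibers overlapped the controls. Bmp1, the C-propeptidase, had 176, 286, 240 and 213 CPM in controls, 410, 459, 412 and 391 CPM with 12000 fibers and 226, 284, 254 and 272 CPM with 30000 fibers. All libraries with 12000 fibers lay above all others. Bmp1 rose by 0.87 ± 0.12 with 12000 fibers and fell by 0.69 ± 0.12 between 30000 and 12000 fibers (edgeR adjusted p = 4.24e-05 and 1.81e-04). Its 30000-fiber difference of 0.18 ± 0.12 from controls was not called (adjusted p = 0.208, or 0.0438 with mouse as a block, edgeR).

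Pcolce, which enhances C-propeptide cleavage, had 101, 103, 81.6 and 81.4 CPM in controls, 66.1, 56.1, 55.2 and 60.4 CPM with 12000 fibers and 185, 258, 193 and 185 CPM with 30000 fibers. It fell by 0.62 ± 0.11 with 12000 fibers, rose by 1.16 ± 0.11 with 30000 fibers and rose by 1.78 ± 0.12 between them (edgeR adjusted p = 4.12e-04, 1.85e-07 and 2.35e-09). No other member had calls in this order. The transcript counted for Pcolce is a retained-intron form, those of Bmp1 and Col16a1 are forms annotated for nonsense-mediated decay, and the other 39 are protein coding.

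The 5 crosslinking oxidases all rose with 12000 fibers and separated with 30000 fibers. Lox, the enzyme that oxidises lysines of fibrillar collagen and elastin, had 236, 191, 311 and 279 CPM in controls, 300, 391, 332 and 339 CPM with 12000 fibers and 142, 170, 171 and 139 CPM with 30000 fibers. It rose by 0.42 ± 0.13 with 12000 fibers and fell by 0.71 ± 0.14 with 30000 fibers, where all 4 libraries were below every control (edgeR adjusted p = 0.0231 and 5.76e-04). Loxl1, known for elastic fibers, had 6.71, 13.3, 21 and 13.7 CPM in controls, 29.9, 25.3, 27.2 and 31.3 CPM with 12000 fibers and 41.1, 55.4, 44.2 and 38.1 CPM with 30000 fibers. Loxl3 had 7.18, 14.1, 23.6 and 17.2 CPM in controls, 31.1, 26.8, 31.7 and 31.8 CPM with 12000 fibers and 47.0, 65.6, 52.1 and 50.1 CPM with 30000 fibers.

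In both Loxl1 and Loxl3 no library of a group overlapped another group, and they rose by 1.07 ± 0.24 and 0.98 ± 0.25 with 12000 fibers and by 1.72 ± 0.25 and 1.80 ± 0.27 with 30000 fibers. Loxl2, which also acts on basement membrane collagen IV, had 21.8, 31.3, 39.1 and 37.5 CPM in controls, 56.0, 71.9, 52.7 and 64.7 CPM with 12000 fibers and 20.4, 28.2, 31.5 and 26.7 CPM with 30000 fibers. Loxl2 and Loxl4 rose by 0.92 ± 0.16 and 0.57 ± 0.13 with 12000 fibers and fell by 1.18 ± 0.19 and 0.88 ± 0.16 between 30000 and 12000 fibers. Their differences between 30000 fibers and control, -0.27 ± 0.20 and -0.30 ± 0.16, were not called. The step of 0.65 ± 0.24 for Loxl1 between fiber numbers (edgeR adjusted p = 0.037) was lost with mouse as a block (adjusted p = 0.0711).

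Lox and Serpinh1 were also set against collagen I itself. Per kilobase, the Lox to Col1a1 ratio was 0.821 to 1.73 in controls, 0.634 to 0.958 with 12000 fibers and 0.205 to 0.238 with 30000 fibers. The Serpinh1 to Col1a1 ratio was 1.64 to 2.84, 1.78 to 2.02 and 0.821 to 0.947 in the same order of groups. In both ratios the libraries with 30000 fibers lay apart from all others. These pairs too were picked after their values had been seen.

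Calls of some members hung on a single library. The Lox rise with 12000 fibers was lost without control mouse 1 (edgeR adjusted p = 0.076) or the 12000-fiber library of mouse 2 (0.0645), and that of Plod3 was lost without the control of mouse 1, 2 or 4 or the 12000-fiber library of mouse 1, 2 or 3, at adjusted p-values of 0.0614 to 0.0937. The Col1a1 step between fiber numbers was lost without the 12000-fiber library of mouse 4 (0.0538) or the 30000-fiber library of mouse 2 (0.0617), and the Loxl3 step without the 30000-fiber library of mouse 2 (0.0538). The Col6a2 rise with 30000 fibers was lost without control mouse 2 (0.0559) or the 30000-fiber library of mouse 3 (0.0601), and the Serpinh1 rise without the 30000-fiber library of mouse 2 (0.051). Calls were gained for Loxl2 and Loxl4, lower with 30000 fibers than in controls without control mouse 1 (edgeR adjusted p = 0.0137 and 0.0391), and for Col6a1, higher without control mouse 3 (0.00719) or mouse 4 (0.0429). The Col28a1 rise with 12000 fibers was lost without control mouse 1 (edgeR adjusted p = 0.0546) or the 12000-fiber library of mouse 3 (0.0961). Col16a1, Col28a1 and Plod1 with 30000 fibers, and Adamts2 and Loxl1 between fiber numbers, lost their calls without any 1 of 4 or more libraries.

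The fibrillar collagens moved with the fibroblast markers across libraries. Their 10 chains summed to 527 to 1282 CPM in controls, 1469 to 1726 CPM with 12000 fibers and 1981 to 2676 CPM with 30000 fibers. Divided by the summed collagen-free fibroblast markers, this gave 0.999 to 1.18 in controls, 1.09 to 1.28 with 12000 fibers and 0.793 to 0.939 with 30000 fibers. The ratio was thus lowest with 30000 fibers, where the sums themselves were highest, and controls and 12000 fibers overlapped. Control mouse 1 had the lowest level of both.

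**Figure D3:**
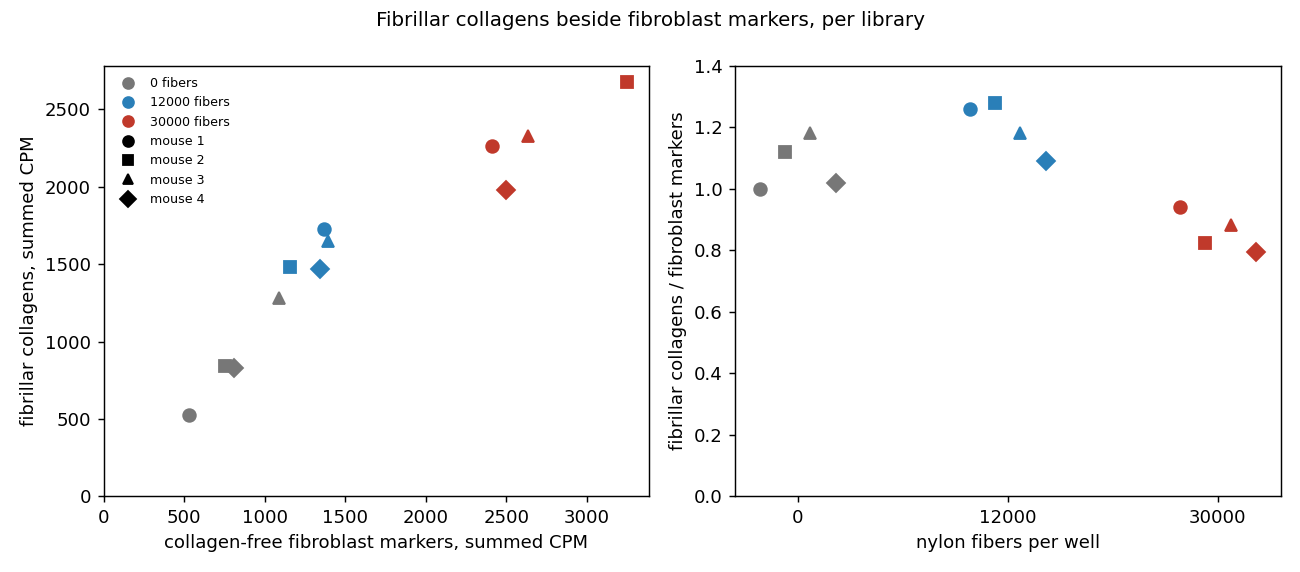
Left, summed CPM of the fibrillar collagen chains (y axis) against that of the collagen-free fibroblast markers (x axis) in the 12 libraries; right, their ratio by fibers per well. Colours are fiber numbers and symbols mice; the 4 libraries with 30000 fibers hold the highest sums and the lowest ratios, 0.793 to 0.939.

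A fit also held the mean log2 level of the 18 tested fibroblast markers as a covariate. It called 6 members higher and 7 lower with 12000 fibers, and 2 higher and 9 lower with 30000 fibers. Of all 13759 genes tested, it called 735 higher and 1305 lower with 12000 fibers, and 1294 higher and 1507 lower with 30000 fibers. The members called were not all those of the fit without the covariate. With 30000 fibers Col11a2, Col15a1, Col25a1, Col27a1 and Lox were no longer called lower, Col11a1 and Col18a1 were called lower, and Col5a1, Col5a2 and Col16a1 were called lower where they had been called higher. This covariate itself rises with fiber number, at 3.458 to 4.555 in controls, 4.457 to 4.841 with 12000 fibers and 5.603 to 6.037 with 30000 fibers, so dose and fibroblast level cannot be told apart in full. In that fit Col1a1, Col1a2 and Col3a1 were not called higher with either fiber number. Serpinh1, Bmp1, Loxl2, Col5a1, Col5a3 and Col6a2 stayed higher with 12000 fibers, at log2 differences of 0.39 ± 0.10, 0.67 ± 0.15, 0.63 ± 0.19, 0.32 ± 0.10, 0.74 ± 0.23 and 0.82 ± 0.24. Crtap at 0.84 ± 0.23 and Pcolce at 1.21 ± 0.33 stayed higher with 30000 fibers. Col7a1 stayed lower in both, at -1.19 ± 0.30 and -2.08 ± 0.60 (edgeR adjusted p = 0.0297 and 0.0424).

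Where reads fell along a gene differed with 30000 fibers. A listed transcript other than the counted one can end near the gene's last 3′ end (within 500 bases) or upstream of it. Of 89 upstream-ending transcripts of 27 members (mean count of at least 20), 81 had a lower log2 ratio to controls than the counted transcript with 30000 fibers, and the median difference was -0.57. With 12000 fibers the same median was 0.01, with 39 of 89 below. Over all genes it was -0.50 with 30000 fibers (81.7% of 30234 transcripts below) and 0.02 with 12000 fibers, and transcripts ending near the 3′ end had medians of 0.00 for the members in both. The median change of all genes with 30000 fibers also fell with transcript length, with 0.53 in the shortest and -0.23 in the longest of 5 length classes (0.03 and -0.02 with 12000 fibers), and 29 of the 39 tested members are in the 2 longest classes, 13 and 16 of them.

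This touches single members. With 12000 fibers all 91 other transcripts of the called members lay on the side of the counted one, and with 30000 fibers 75 of 96 did. The exceptions were in Col1a2, Col16a1, P4hb, Pcolce, Plod1, Plod3 and Serpinh1. For Pcolce the 4 transcripts that reach its 3′ end were higher with 30000 fibers than in controls, with log2 ratios of 1.08 to 2.15, and the 7 that end upstream were lower, at -1.05 to -0.47. For Plod3 all 5 other transcripts were lower, and summing its transcripts gave 0.18 ± 0.11 with 30000 fibers (edgeR adjusted p = 0.158). Plod1 summed over transcripts was at 0.03 ± 0.10 (edgeR adjusted p = 0.804). For Col1a2, 6 of 7 other transcripts were higher, at 0.12 to 1.22, and 1 was at -1.42, against 1.70 for the counted one. The part of read position and of the mitochondrial share in the 30000-fiber results was not tested. Restricting the fit to transcripts of at least 3000 bases, an alternative chosen after the data were seen, gave 17 of 36 members higher and 9 lower with 30000 fibers. Of all 7374 genes in that fit, 2287 were higher and 2339 lower.

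**Figure D4:**
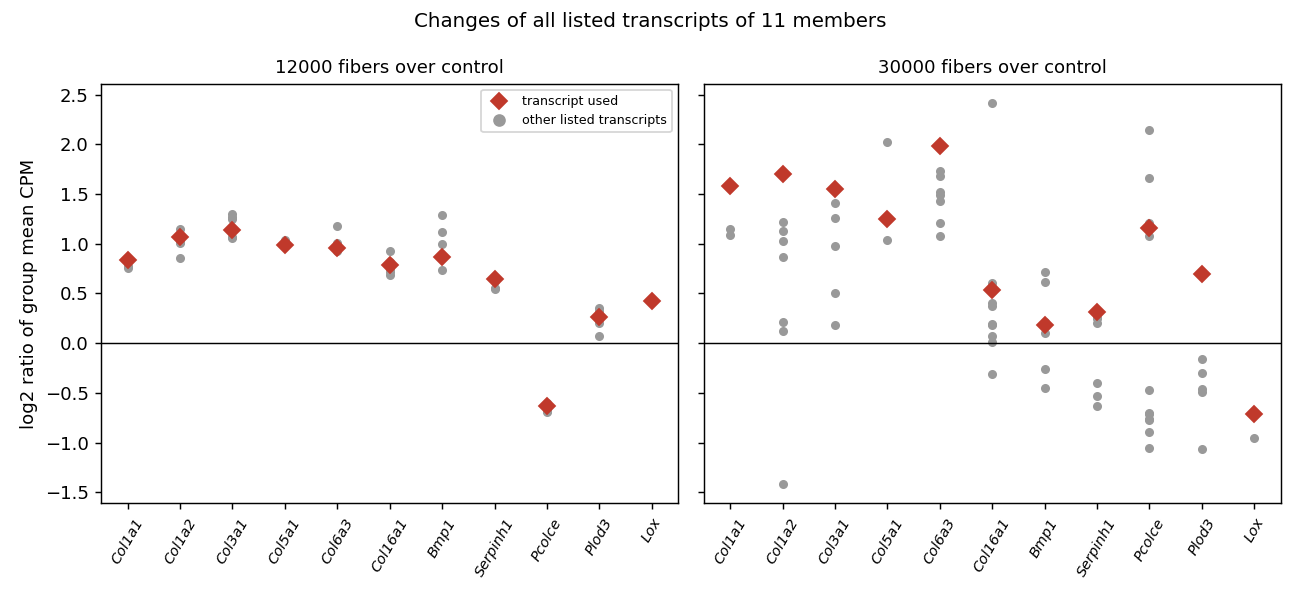
Log2 ratio of group mean CPM over control (y axis) for the counted transcript (red diamonds) and all other listed transcripts with a mean count of at least 20 (grey circles) of 11 members, with 12000 fibers (left) and 30000 fibers (right). The transcripts of a gene lie close together with 12000 fibers and spread apart with 30000 fibers, most in Col1a2, Col16a1 and Pcolce.

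Other genes of collagen handling were taken as lists that the naming rule does not hold. Among 13 tested genes of hydroxylation and folding, 6 rose and 3 fell with 12000 fibers, and 7 rose and 4 fell with 30000 fibers. Pdia3, a disulfide isomerase, was at 729 ± 22.6 CPM in controls, 678 ± 13.2 CPM with 12000 fibers and 507 ± 23.8 CPM with 30000 fibers, and fell by 0.52 ± 0.06 with 30000 fibers. Colgalt1, which adds galactose to hydroxylysine, was at 273 ± 12.2, 337 ± 11.7 and 263 ± 5.97 CPM and rose by 0.30 ± 0.06 with 12000 fibers. Ppib, the prolyl isomerase of the complex that holds Crtap, was at 152 ± 7.23, 158 ± 11 and 185 ± 6.58 CPM and rose by 0.29 ± 0.06 with 30000 fibers. P4ha1, a catalytic prolyl 4-hydroxylase subunit, was at 135 ± 26.8, 134 ± 10.4 and 134 ± 8.03 CPM and was not called.

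Among 11 genes of procollagen export, 6 rose and none fell with 12000 fibers, and 9 rose and 1 fell with 30000 fibers. Mia3, the cargo receptor that loads procollagen into large carriers, was at 81.0 ± 5.94, 72.3 ± 3.57 and 151 ± 7.03 CPM and rose by 0.90 ± 0.07 with 30000 fibers (edgeR adjusted p = 6.69e-10). Sec31a, of the outer COPII coat, rose by 0.18 ± 0.07 and 0.65 ± 0.07. Among 3 further propeptide enzymes, Adamts14 rose by 1.43 ± 0.25 and 2.47 ± 0.25, and Tll1, a relative of Bmp1, fell by 0.94 ± 0.16 and 1.70 ± 0.22.

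Among 12 fibril regulators, 5 rose and 4 fell with 12000 fibers, and 7 rose and 5 fell with 30000 fibers; Dcn, Lum, Fbln1 and Tnc among them are also on the fibroblast or myofibroblast marker lists. Bgn, a small proteoglycan that binds collagen, was at 294 ± 136, 608 ± 60.5 and 1916 ± 324 CPM and rose by 1.05 ± 0.30 and 2.71 ± 0.31. Sparc, a collagen-binding matricellular protein, rose by 0.55 ± 0.12 and 0.69 ± 0.12, and Thbs1 was at 0.09 ± 0.09 (not called) and fell by 0.31 ± 0.09. Fn1, on which collagen fibrils assemble, was at 9131 ± 1453, 13211 ± 620 and 11215 ± 1201 CPM and rose by 0.53 ± 0.10 and 0.30 ± 0.10. Of 5 collagenases and gelatinases 2 rose with 12000 fibers and 4 rose with 30000 fibers, while 1, Mmp14, fell by 0.30 ± 0.07 with 30000 fibers. Mmp14, a membrane-bound collagenase and the most abundant of the list, was at 415 ± 18.6, 418 ± 19.6 and 338 ± 31.5 CPM. Mmp2, a gelatinase of fibroblasts, rose by 0.95 ± 0.29 and 1.55 ± 0.30. Of 8 collagen receptors and uptake genes, 1 rose and 1 fell with 12000 fibers, and 1 rose and 3 fell with 30000 fibers. The gene that rose was in both Ddr2, a mesenchymal collagen receptor named here after its values were seen and also on the fibroblast marker list. Itgb1, the beta chain of collagen-binding integrins, fell by 0.83 ± 0.06 with 30000 fibers, and Ddr1, the epithelial relative of Ddr2, by 1.28 ± 0.08.

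Of the 6 basement membrane chains tested that the rule leaves out, 4 rose and 2 fell with 12000 fibers, none rose and 4 fell with 30000 fibers, and all 6 were lower with 30000 than with 12000 fibers. Col4a1 was at 1462 ± 365, 2879 ± 365 and 1498 ± 40.9 CPM, with log2 differences of 0.98 ± 0.16 and 0.04 ± 0.16 from controls. Col17a1, of hemidesmosomes, was at 350 ± 112 CPM in controls, 25.3 ± 11.6 CPM with 12000 fibers and 8.55 ± 3.28 CPM with 30000 fibers, and fell by 3.80 ± 0.34 and 5.34 ± 0.45. Of 13 regulators of collagen transcription 3 rose and 1 fell with 12000 fibers, and 1 rose and 5 fell with 30000 fibers. Ccn2, a matricellular target of TGF-beta and YAP signalling, was at 1290 ± 157, 2091 ± 98.1 and 1089 ± 160 CPM.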

How the data were processed

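RNA-seq counts per Ensembl transcript were deposited by the authors, for 71081 transcripts in the 12 epithelial libraries. Per the submitters' processing notes, bcl2fastq, FastQC, cutadapt 1.12, HISAT2 2.1.0 and mm10 were used. The sources used here name no counting program, annotation, strand setting or barcode use, so overlapping transcripts and antisense genes are uncertain. The lowest total of a listed transcript was 60. The 12 fibroblast columns held 107814 entries that could not be tied to identifiers and were not used.

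Each gene was represented by its transcript of highest mean count, 14557 in all, and the 3 groups of 4 libraries were compared. Positions come from GENCODE M21 (GRCm38), which matched 70518 transcripts. The quasi-likelihood test of edgeR 4.0.16 (R 4.3.3) with TMM scaling and filterByExpr was fitted to all 12 libraries, and p-values were adjusted by Benjamini-Hochberg over 13759 genes and called under 0.05. SE was derived from the test statistic. Fits were tested on simulated data. Alternatives were DESeq2 1.42.0, its size factors, no filter, summed transcripts, mitochondrial genes left out, only the groups compared, mouse as a block, the fibroblast level as covariate, each library left out and, added after the data were seen, transcripts of at least 3000 bases.

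The labels give mice 1 to 4 in every group, from 4 isolations, so same-numbered libraries share an animal and are paired. Deviations from group means correlated at a median of 0.105 (-0.019 to 0.156) in the 12 same-mouse pairs and -0.029 (-0.184 to 0.124) in the 36 others. The study's methods give no block, so the fit without it is the main one.

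Members, roles, marker lists and pathway lists were chosen with earlier results of these data known. Values per library go to the 4 most abundant members of a role and to those called in all 3 comparisons, and to others that a result turns on. Up to 4 genes of highest mean CPM are named per pathway list.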

Additional observations from a re-analysis of the deposited data

Results flagged for a closer look

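In 117 groups of 4 libraries (39 members, 3 groups each), 7 held a library whose gap to the nearest of the others, as a share of the group's range, was above Dixon's critical value. Chance gives about 1 in 20 such groups. With 30000 fibers the library of mouse 2 was the highest for Pcolce at 258 CPM (others 185 to 193), for Col5a1 at 247 CPM (others 186 to 195) and for Crtap at 91.0 CPM (others 76.8 to 78.6), and mouse 1 was lowest for Col12a1 at 25.1 CPM (others 33.1 to 33.9). With 12000 fibers mouse 2 was highest for Col12a1 at 118 CPM (others 86.7 to 87.1) and lowest for Loxl3 at 26.8 CPM (others 31.1 to 31.8). The control of mouse 1 was highest for Col7a1 at 856 CPM (others 532 to 541).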

How the results depend on the processing

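Values of all alternatives were tallied for those tested members that are among the 4 most abundant of a role or called in all 3 comparisons. In this tally 1513 values kept their side of the threshold, 60 lost their call, 29 gained one and 23 changed sign with a call in either fit. The 1513 include values that changed sign but were called in neither fit. With the fibroblast level as covariate, 6 members were higher with 12000 fibers, 2 with 30000 fibers and 3 between fiber numbers. Between fiber numbers 19 members were lower, where 2243 of all 13759 genes were higher and 2418 lower. In the 3 comparisons 2040, 2801 and 4661 genes changed, and the cause was not tested. Signs that changed in that fit, for values called in either fit, were as follows. With 12000 fibers it was Col18a1 (-0.28). With 30000 fibers they were Adamts2 (-0.27), Col16a1 (-0.98), Col18a1 (-0.74), Col1a1 (-0.15), Col1a2 (-0.41), Col5a1 (-0.73), Col5a2 (-0.63), Col6a3 (-0.12), Loxl1 (-0.38), Loxl3 (-0.40), P4hb (-0.02) and Serpinh1 (-0.40), and, outside that tally, Col3a1 (-0.41), Col6a2 (-0.58), Col28a1 (-1.17), Col11a1 (-2.68) and Plod1 (-0.23). Between fiber numbers they were Adamts2 (-0.82), Col18a1 (-0.46), Col1a1 (-0.40), Col1a2 (-0.78), Col5a1 (-1.05), Col5a2 (-0.91), Col6a3 (-0.37), Loxl1 (-0.72), Loxl3 (-0.61) and, outside the tally, Col3a1 (-0.88). Other members changed sign but were called in neither fit, such as Col5a3 (-1.22) and Col6a1 (-0.61) with 30000 fibers and Col25a1 (0.63) between fiber numbers. With summed transcripts Plod3 changed sign between fiber numbers (-0.09). Transcripts of at least 3000 bases alone gave 3192, 4626 and 3716 changed genes, from fewer genes tested (7374). With mouse as a block, 21, 20 and 9 members were higher and 7, 10 and 13 lower, and 5521, 9141 and 7769 genes changed; calls it changed are given with their genes. Leaving out a library gave 19 to 23, 15 to 21 and 7 to 12 members higher, 6 to 8, 9 to 11 and 11 to 13 lower, and 4441 to 5414, 8605 to 9059 and 7067 to 7901 genes changed. Libraries with 30000 fibers held 2799765 to 3723250 counts on the counted transcripts, so members under about 1 CPM are not resolved there.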
